A study of Mus musculus with 6 samples.

Results

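The 300 brightest circular RNA (circRNA) probes of normal mouse kidney cortex were followed in normal tissue and in the cortex of mice with diabetic kidney injury (DKI). They were chosen among 14236 circRNA probes on each array, of which 13518 were well above background on all 6 arrays. From these 13518, the 300 with the highest mean signal over the 3 normal arrays were taken, 2.11% of all circRNA probes. The signal is the log2 of the spot's background-subtracted brightness minus the 75th percentile of the circRNA probes on the same array, so that 0 stands for that percentile. The high level in normal cortex is therefore how the circRNAs were chosen and not a result. The order is one of spot brightness, which depends on the probe as well as on the amount of RNA, and does not give amounts per circRNA.

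A circRNA forms when the splicing machinery joins the end of an exon to the start of the same or an earlier exon, which closes the RNA into a ring. The ring has no free end for exonucleases, and circRNAs are for this reason long-lived and can build up in tissues whose cells divide little, such as kidney. A probe for such a ring is usually placed across the back-splice junction, which the linear transcript of the same gene lacks. The files name each circRNA by a probe ID only and do not pair it with a host gene, so no gene names are given here, and no probe sequence was analysed.

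The samples were male kidney cortex, 3 normal and 3 from mice with DKI, with 1 array per sample. Strain, age, how diabetes was induced and its duration are not given in the sources used here, nor are genotypes, and the growth and treatment labels speak of liver tissue. The labels do not say whether each sample is a different animal. The p-values therefore measure the spread between 6 samples, and that spread may be technical. Of 29 marker genes of kidney cell types, immune cells and liver, 0 were among the 44 genes that the array's mRNA probes could be matched to, and the labelled tissue could not be checked against them. In bulk tissue, fewer cells of a type and less RNA per cell cannot be told apart.

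The 75th percentile of the circRNA signal ranged from 92.3 to 218.5 over the arrays, and 0 circRNA spots were saturated. The array maker's bright-corner control spots had a median signal of 9317 on DKI replicate 3 and of 33156 to 76690 on the other 5 arrays. Normal replicates 2 and 3 were scanned in 1 session, and normal replicate 1 and the 3 DKI arrays in another. The array with the dim controls is also the one with the low values below, and the part of the dim controls was not tested. The session of normal replicates 2 and 3 held no DKI array. Where these arrays are compared with DKI arrays, session and group cannot be told apart.

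A small part of the probes carried most of the signal. The 300 circRNAs held 72.9%, 74.6% and 75.9% of the summed circRNA signal on normal replicates 1, 2 and 3, a mean of 74.5% ± 1.51 (SD, n = 3). On DKI replicates 1, 2 and 3 they held 71.0%, 74.6% and 52.1%, a mean of 65.9% ± 12.1 (SD, n = 3). DKI replicate 2 thus lay inside the normal range, DKI replicate 1 lay just below the lowest normal array, and DKI replicate 3 stood far below all others. Without it the DKI mean was 72.8%. The brightest 10 alone held 22.5%, 17.96% and 21.5% in normal cortex and 16.4%, 18.8% and 13.8% in DKI cortex. The brightest 100 held 57.7% ± 1.67 in normal and 50.2% ± 10.7 in DKI cortex (SD, n = 3 each). Since the 300 were chosen on the normal arrays, a lower share in DKI is favoured by the choice and was not tested.

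**Figure D1:**
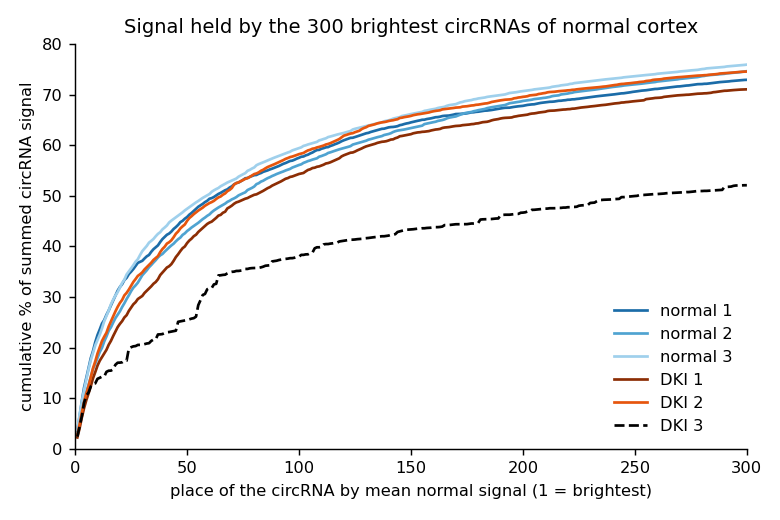
The horizontal axis is the place of a circRNA by its mean signal over the 3 normal arrays, and the vertical axis is the share of the array's summed circRNA signal held up to that place, in percent, with 1 line per array. The lines of 5 arrays end between 71.0% and 75.9%, and the dashed line of DKI replicate 3 ends at 52.1%.

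To compare how concentrated the signal was without favouring a group, each array's own 300 brightest probes were also summed. They held 73.9%, 75.02% and 76.4% in normal cortex and 73.1%, 75.6% and 64.6% in DKI cortex. The means, 75.1% ± 1.26 and 71.1% ± 5.79 (SD, n = 3 each), did not differ beyond the spread (p = 0.3 in an exact permutation test, two-sided, which cannot go below 0.1 with 3 arrays against 3). Without DKI replicate 3 the difference of -3.98 percentage points became -0.72. An array's own brightest probes reached 50% of the signal after 61, 71 and 57 probes in normal cortex, after 76 and 62 on DKI replicates 1 and 2, and after 100 on DKI replicate 3.

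On DKI replicate 3 the summed brightness of the 300 was the lowest of the 6 arrays. The 300 summed to 2025474 signal units there. They summed to 4865879, 6548099 and 5179589 units in normal cortex and to 8665971 and 7286084 on the other DKI arrays. All other circRNA probes together summed to 1863419 units on DKI replicate 3, which lay within the 1642328 to 2227493 units of the normal arrays but below the 3533259 and 2485981 units of DKI replicates 1 and 2. These sums are unscaled, and the control spots of this array were the dimmest too. The part of the dim controls in the low sum was not tested.

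The order at the very top changed little on 5 arrays and more on DKI replicate 3. Of the 10 brightest, 10, 9 and 9 were among the 10 brightest of normal replicates 1, 2 and 3, which took part in the choice. On DKI replicates 1, 2 and 3 it was 10, 10 and 6. ASCRP4006710 was the brightest of the 13518 probes on 5 arrays and the third brightest on DKI replicate 3. Its signal read 11.08, 10.92 and 11.37 in normal cortex and 10.29, 10.71 and 9.98 in DKI cortex. The groups did not overlap, and DKI minus normal was -0.80 (SE 0.29, 95% interval -1.48 to -0.11). ASCRP4012684 had 10.71, 10.52 and 11.04 in normal and 9.98, 10.33 and 9.72 in DKI cortex. Here too each DKI array was lower than each normal one, at a difference of -0.75 (SE 0.28). Neither difference passed the adjustment over the 14119 circRNAs tested (limma, adjusted p = 0.482 for both). Without DKI replicate 3 the differences were -0.63 and -0.60. With quantile normalization they shrank to -0.12 and -0.23, and with the authors' values to 0 and -0.19. Quantile normalization gives probes of the same place the same value on every array. Differences of the brightest circRNAs, here and below, are held small by it where their places change little, and nothing is read from that.

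ASCRP4006342 followed with 10.80, 10.58 and 10.84 in normal and 10.21, 10.51 and 9.76 in DKI cortex. The groups did not overlap, at a difference of -0.58 (SE 0.28), which was -0.38 without DKI replicate 3 and -0.10 with quantile normalization or the authors' values. ASCRP4004008 had 10.66, 10.28 and 10.65 against 10.02, 10.34 and 10.12, so that DKI replicate 2 lay above the lowest normal array. It was the brightest circRNA of DKI replicate 3, and its difference of -0.37 (SE 0.25) turned to 0.22 with quantile normalization. The fifth, ASCRP4008132, had 10.15, 10.23 and 10.48 against 9.77, 9.98 and 9.20, with no overlap between the groups. Its difference of -0.64 was -0.41 without DKI replicate 3 and -0.15 with quantile normalization. The limma adjusted p of these 3 lay between 0.493 and 0.614.

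The next 5 were less alike on DKI replicate 3. ASCRP4007838 had 10.19, 9.94 and 10.50 in normal cortex and 9.53, 9.84 and 8.05 in DKI cortex, all below normal, and its difference of -1.07 was -0.52 without DKI replicate 3 and -0.60 with quantile normalization. ASCRP4013042 had 10.21, 10.005 and 10.30 against 9.65, 10.04 and 8.98, and ASCRP4011502 had 9.73, 10.05 and 9.99 against 9.79, 10.14 and 7.76. In both, DKI replicate 2 reached normal values and DKI replicate 3 was the lowest array. The difference of ASCRP4013042, -0.62, was -0.33 without that array and -0.15 with quantile normalization. ASCRP4009711 showed the widest gap, with 10.03, 9.42 and 10.04 in normal cortex, 9.39 and 9.69 on DKI replicates 1 and 2, and 5.42 on DKI replicate 3. Its difference of -1.66 was -0.29 without that array. Its place in the order was 8 to 13 on the other arrays and 131 there. ASCRP4007626 had 9.72, 9.56 and 9.54 against 9.48, 9.91 and 8.57. The sign of its difference, -0.29, and of that of ASCRP4011502, -0.69, turned without DKI replicate 3, to 0.086 and 0.043. With quantile normalization that of ASCRP4007626 also turned, to 0.096, and that of ASCRP4011502 was -0.19.

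**Figure D2:**
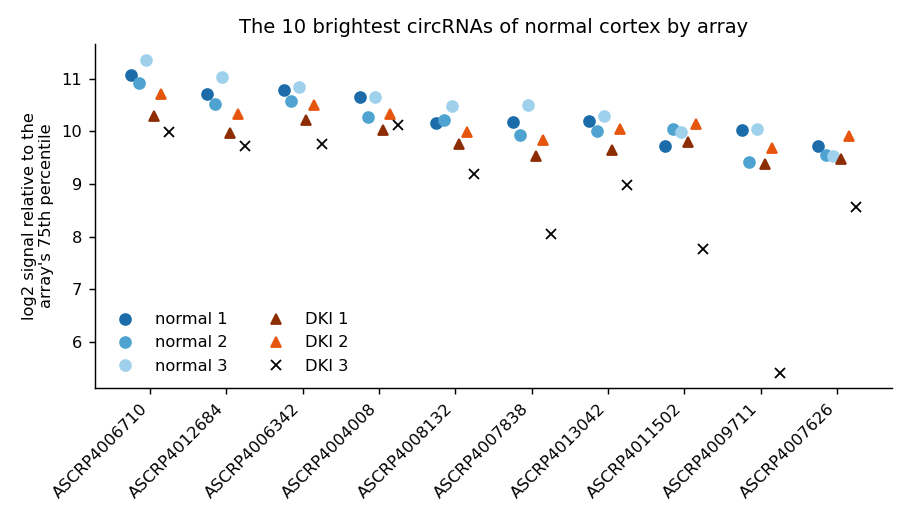
The vertical axis is the log2 signal relative to the array's 75th percentile and the horizontal axis names the 10 brightest circRNAs, in order of their normal mean, with a circle for each normal array, a triangle for DKI replicates 1 and 2 and a cross for DKI replicate 3. The cross of ASCRP4009711 lies at 5.42, below 9.39 to 10.04 on the other 5 arrays.

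Across all 300, the median signal was 5.74, 6.33 and 6.24 on normal replicates 1, 2 and 3. It was 5.81, 5.999 and 4.42 on DKI replicates 1, 2 and 3. The lowest of the 300 stood at 2.20, 4.45 and 4.42 in normal cortex and at 2.66, 2.96 and -2.67 in DKI cortex. On 5 arrays all 300 thus lay above the array's 75th percentile. On DKI replicate 3, 27 lay below it and 12 lay below the median of all circRNA probes. The choice had kept only probes well above background on all 6 arrays. The lowest brightness, 14.5 units on DKI replicate 3, stood against 2.21 units for the brightest of that array's 77 negative control spots.

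**Figure D3:**
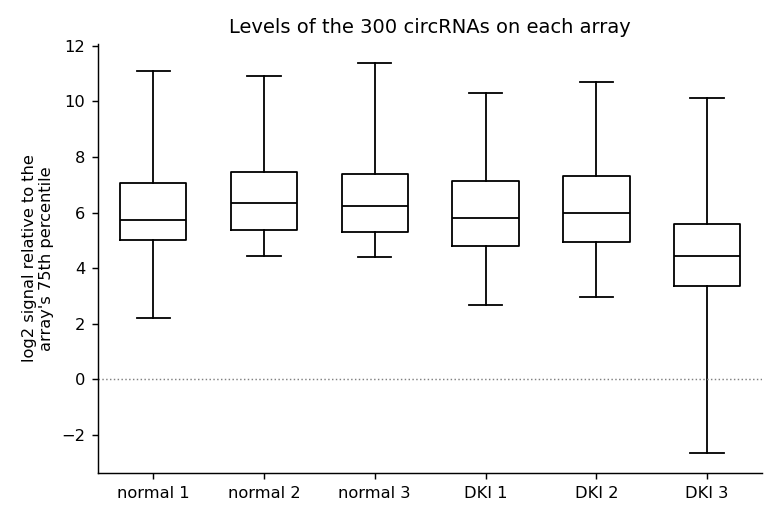
The vertical axis is the log2 signal relative to the array's 75th percentile (dotted line at 0) for the 300 circRNAs, with 1 box per array from the lower to the upper quartile, a line at the median and whiskers to the lowest and highest. The median of DKI replicate 3 is 4.42, below 5.74 to 6.33 on the other arrays, and its lowest whisker reaches -2.67.

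The limit of 300 fell between probes with almost the same mean. The last inside, ASCRP4011320, had a normal mean of 4.67 from 3.40, 5.33 and 5.29. The first outside, ASCRP4011121, also had 4.67, from 3.59, 5.08 and 5.33. Both were lower on normal replicate 1 than on the other normal arrays.

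On each array, most of the 300 were among its own 300 brightest. Of the 300, 263, 274 and 276 were among the 300 brightest of normal replicates 1, 2 and 3, arrays that took part in the choice. On DKI replicates 1, 2 and 3, which did not, the numbers were 247, 258 and 171. All of places 1 to 100 stayed among the 300 brightest on DKI replicates 1 and 2, while on DKI replicate 3 it was 42 of places 1 to 50 and 39 of places 51 to 100. Of places 201 to 300, which lie next to the limit and can leave with a small change, 60, 66 and 31 stayed on DKI replicates 1, 2 and 3. Over all 6 arrays 155 circRNAs were always among the 300 brightest, and 218 were when DKI replicate 3 was left out.

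A normal array held out of the choice gave a level to read these numbers against. When the 300 were chosen on the other 2 normal arrays, 242, 262 and 263 of them were among the 300 brightest of normal replicates 1, 2 and 3. The same choices gave 237 to 254 on DKI replicate 1 and 247 to 267 on DKI replicate 2. These lay close to a normal array that was not used. On DKI replicate 3 they gave 166 to 174. The 129 probes that took the free places on DKI replicate 3 had a median place of 643 in normal cortex, and one came from place 4824.

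Spread between arrays depended on which arrays were set side by side. The median SD of the 300 was 0.28 between the normal arrays, against 0.26 for the other 13819 circRNAs tested. Between the DKI arrays it was 1.06, against 0.50 for the others, and 273 of the 300 (91.0%) had a larger SD in DKI than in normal cortex, against 77.3% of all circRNAs tested. Without DKI replicate 3 it was 86 of the 300 (28.7%), against 33.5% of all. This sets an SD over 2 DKI arrays of 1 session against one over 3 normal arrays of both sessions, which favours a low count. The median SD of the 300 in DKI was then 0.18, and without normal replicate 1 that in normal cortex was 0.11, each over 2 arrays of 1 session. DKI replicates 1 and 2 differed by a median of 0.25 in size, almost the 0.25 of all circRNAs tested, and normal replicates 2 and 3 by 0.15 against 0.21.

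The steadiest circRNA, ASCRP4001750, had 9.16, 9.18 and 9.16 on the normal arrays, an SD of 0.010, and 8.91, 9.17 and 8.57 in DKI cortex. ASCRP4014131 was next, with 6.59, 6.59 and 6.54 in normal cortex and 6.91, 7.11 and 4.29 in DKI cortex. At the other end, ASCRP4006059 had 2.87 on normal replicate 1 but 7.67 and 7.13 on normal replicates 2 and 3. It had 4.001 and 5.79 on DKI replicates 1 and 2 and -1.37 on DKI replicate 3. ASCRP4001946 ran the same way, with 2.72, 6.89 and 6.67 in normal cortex and 3.74, 4.29 and -2.08 in DKI cortex. For both, normal replicate 1 lay below DKI replicates 1 and 2, and the normal group spanned more than the gap between the group means.

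These circRNAs were not alone. In 53 of the 300 (17.7%), the mean of normal replicates 2 and 3 lay above normal replicate 1 by more than 1 on the log2 scale, against 562 (3.98%) of all circRNAs tested. The opposite gap of that size occurred in 1 of the 300. The 300 were chosen by the mean of these same arrays, in which normal replicates 2 and 3 outweigh normal replicate 1, so the choice favours this direction and nothing is read from these shares. The limit of 1 was chosen after the values were seen, and the 53 are described without a test. Their median signal was 4.13 on normal replicate 1, 6.78 and 6.54 on normal replicates 2 and 3, 4.46 and 4.98 on DKI replicates 1 and 2, and 0.088 on DKI replicate 3. In 41 of the 53, both DKI replicates 1 and 2 lay between normal replicate 1 and the other normal arrays, which the choice of the 53 favours too. The 53 held 3.57%, 12.8% and 12.7% of the summed signal in normal cortex and 5.05%, 5.67% and 1.03% in DKI cortex.

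The arrays with the high values of the 53, normal replicates 2 and 3, are those of the second scan session. Within the first session, DKI replicates 1 and 2 lay above normal replicate 1 by a median of 0.71 for the 53, whereas against all 3 normal arrays their median difference was -1.08. Among the other 247 circRNAs both medians were near 0, at -0.027 and -0.094. The 53 were picked for low values on normal replicate 1, which favours both signs, and nothing is read from this contrast. The session's part in the pattern of the 53 was not tested.

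DKI replicate 3 was low for both sets and lower for the 53. It was the lowest of all 6 arrays for 48 of the 53 and for 209 of the other 247. Its median difference from DKI replicates 1 and 2 was -4.74 for the 53 and -1.45 for the 247. Across the 300 circRNAs, the gap within the normal group and the gap within the DKI group correlated at Pearson's r = -0.63 and Spearman's rho = -0.51. Across all 14119 tested they correlated at -0.45 and -0.41. Both gaps rest on separate arrays, but the points share all 6 arrays and are not independent replicates.

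**Figure D4:**
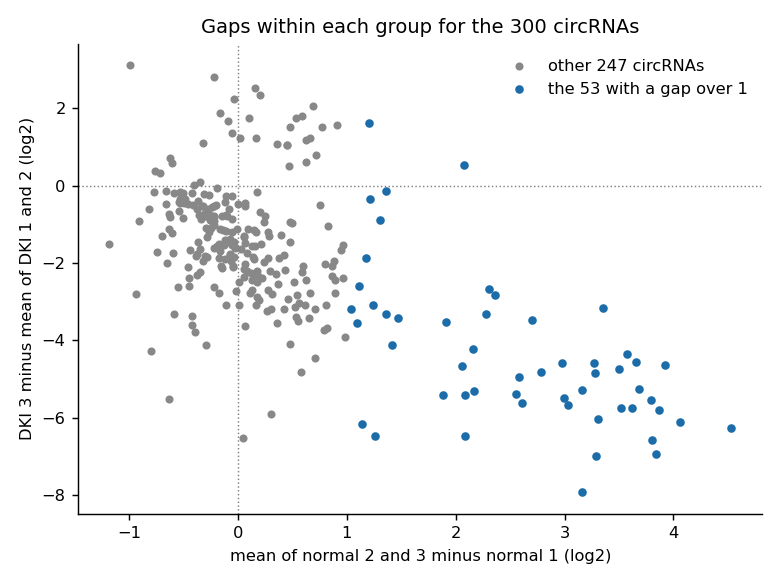
The horizontal axis is the mean of normal replicates 2 and 3 minus normal replicate 1 and the vertical axis is DKI replicate 3 minus the mean of DKI replicates 1 and 2, both in log2 units, with 1 point for each of the 300 circRNAs and the 53 with a horizontal gap over 1 in blue. The blue points have a median of -4.74 on the vertical axis and the grey points of -1.45.

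The rank order within the 300 showed the same arrangement of arrays. Normal replicates 2 and 3 correlated at a Spearman's rho of 0.97, and DKI replicates 1 and 2 at 0.97. Normal replicate 1 correlated at 0.90 with DKI replicates 1 and 2 but at 0.66 and 0.69 with normal replicates 2 and 3. Over all circRNAs tested the last values were 0.96 and 0.94, above the 0.89 and 0.93 of normal replicate 1 with DKI replicates 1 and 2. Normal replicate 1 thus ranked closer to DKI replicates 1 and 2 within the 300, and closer to normal replicates 2 and 3 over all circRNAs. The choice on the normal mean favours circRNAs that are higher on normal replicates 2 and 3 than on normal replicate 1. Other sets of circRNAs were not compared, and nothing is read from this contrast. Within the 300, DKI replicate 3 correlated at 0.65 and 0.57 with the other DKI arrays, at 0.69 with normal replicate 1 and at 0.33 with normal replicates 2 and 3. These are descriptions over 300 probes that share their arrays and were chosen on the normal ones, where their means ran from 4.67 to 11.12.

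The study's question was which circRNAs differ between normal and DKI cortex. Among the 300, 258 (86.0%) had a lower and 42 a higher mean in DKI cortex, against 54.9% lower over all circRNAs tested. The median difference was -0.60, against -0.060 over all circRNAs tested. The 300 were chosen for a high mean over these same normal arrays, so the choice favours lower values in DKI. The counts by direction in this paragraph carry that favour and were not tested. Limma called 0 of the 300 and 0.00% of the 14119 tested, at an adjusted p under 0.05. An unadjusted p under 0.05 was reached by 23 of the 300, or 7.67%, against 10.3% of all tested. All 23 were lower in DKI, against 6.90% called lower and 3.44% called higher over all tested. This count rested on single arrays and on the scaling. It was 63, or 21.0%, without DKI replicate 2, against 8.49% of all, and 4, or 1.33%, without normal replicate 2 or 3, against 3.88% and 2.73%. It was 8, or 2.67%, with quantile normalization, against 9.42% of all. With an intensity trend in the fit it was 11, or 3.67%, against 10.2%. Groups that did not overlap were found for 61 of the 300, or 20.3%, against 19.9% of all tested. The DKI arrays were the lower ones in 58 of these, or 19.3%, against 13.7%, and the higher ones in 3, or 1%, against 6.20%. The count over both directions was thus near the background.

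The drop was mostly that of DKI replicate 3. Relative to the normal mean, the median of the 300 was -0.24 and -0.12 on DKI replicates 1 and 2 and -1.60 on DKI replicate 3. Over all circRNAs tested, the medians were -0.21, -0.16 and -0.0080. Against the mean of all 3 normal arrays, DKI replicates 1 and 2 thus shifted the 300 about as they shifted all circRNAs. DKI replicate 3 lowered the 300 relative to all circRNAs. Each array was scaled to a percentile of all its circRNA probes, which largely holds the median of all in place. Whether the level of all circRNAs changed on DKI replicate 3 therefore cannot be read from these medians. Quantile normalization brought the median difference of the 300 from -0.60 to -0.29. Without DKI replicate 3 it was -0.16, against -0.20 over all tested, and 194 (64.7%) were lower, against 62.1% of all. Slides were inferred from the scan session and the first number of each array's position code, and the labels do not name them. On the inferred slide 1, with 1 array of each group, DKI replicate 1 minus normal replicate 1 gave a median of 0.0097. Of the 300, 149 were lower there, and the median over all tested was -0.23.

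The departure of DKI replicate 3 varied with brightness. Its median difference from the normal mean was -1.12 for places 1 to 10, -2.74 for places 11 to 50, -1.82 for places 51 to 100 and -1.42 for places 101 to 300. Outside the 300 it was -0.63 for places 301 to 600, -0.38 for places 601 to 1000 and 0.10 for places 5001 to 13518. DKI replicates 1 and 2 stayed between -0.52 and 0.030 in all of these bands. The band medians over all 3 normal arrays carry the choice by the normal mean, and no test was made.

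**Figure D5:**
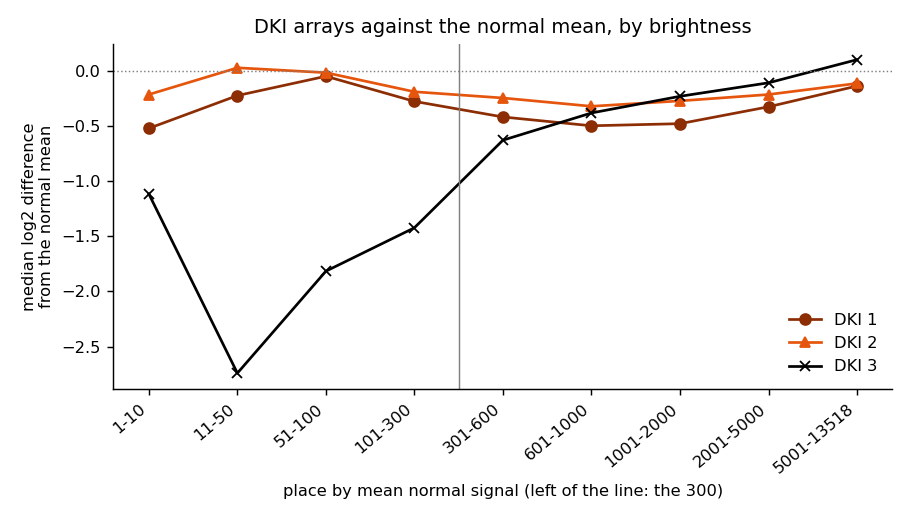
The horizontal axis gives bands of places by mean normal signal, with the 300 left of the vertical line, and the vertical axis gives the median log2 difference of each DKI array from the normal mean. DKI replicate 3 reaches -2.74 at places 11 to 50 and 0.10 in the last band, while DKI replicates 1 and 2 stay between -0.52 and 0.030.

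A normal array left out of the choice gave the shift without that favour. Chosen on the other 2 normal arrays, the 300 had a median difference of DKI mean minus held-out array of -0.60, -0.55 and -0.49 for normal replicates 1, 2 and 3. Over all tested the values were -0.14, -0.0086 and -0.026. For DKI replicate 3 alone the medians were -1.74, -1.54 and -1.47. For DKI replicates 1 and 2 they were 0.094 and 0.12 against normal replicate 1, which shares their scan session, where all circRNAs tested had -0.23 and -0.19. Against normal replicates 2 and 3 they lay between -0.20 and -0.069, and those of all tested between -0.19 and -0.079. The drop on DKI replicate 3 was present against each normal array that did not take part in the choice, whereas the sign for DKI replicates 1 and 2 depended on which normal array was held out.

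On DKI replicate 3, 213 of the 300 (71.0%) lay more than 1 below the normal mean, against 15.6% of all circRNAs tested. A drop of more than 3, which is 8-fold, occurred in 67 (22.3%), against 1.57%. In contrast, 22 of the 300 (7.33%) lay more than 1 above the normal mean on that array, against 13.7% of all circRNAs tested. They did so by a median of 1.49 and at most 3.20. The same 22 had medians of 0.14 and -0.20 on DKI replicates 1 and 2, which is close to the normal mean.

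Among the 300, the lower circRNAs with the smallest p were lowered on all 3 DKI arrays. ASCRP4012007 had 5.25, 4.95 and 5.02 in normal and 4.25, 4.44 and 4.10 in DKI cortex. Without overlap between the groups, it was 1.75-fold lower in DKI, a difference of -0.81 (SE 0.24, 95% interval -1.39 to -0.23), which was -0.53 with quantile normalization. ASCRP4001363 had 5.10, 4.96 and 4.84 against 3.96, 4.46 and 3.70, again with no overlap. It differed by -0.92 (SE 0.28, 95% interval -1.59 to -0.25), 1.90-fold lower. Neither passed over all tested (limma, adjusted p = 0.482 for both). Both were picked for a small p among circRNAs chosen on the normal arrays, which favours a drop.

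The higher ones with the smallest p were higher on all 3 DKI arrays, without overlap, and most of the difference was that of DKI replicate 3. ASCRP4000692 had 5.02, 5.20 and 5.04 in normal cortex and 5.67, 5.21 and 7.19 in DKI cortex. It differed by 0.93 (SE 0.50, 95% interval -0.25 to 2.12), or by 0.35 without DKI replicate 3 and 1.42 with quantile normalization, and DKI replicate 2 lay next to the highest normal array. ASCRP4000169 had 7.50, 7.58 and 7.24 against 7.95, 7.61 and 9.46, a difference of 0.90 (SE 0.49, 95% interval -0.25 to 2.05), which was 0.34 without DKI replicate 3. Its place rose from 56, 70 and 82 on the normal arrays to 8 on DKI replicate 3, and was 45 and 64 on DKI replicates 1 and 2. The limma adjusted p was 0.537 and 0.540.

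Leaving out DKI replicate 3 let limma call 10 of the 300, or 3.33%, against 9.53% of all circRNAs tested. No test of this difference in shares was made. Of the 10, 4 were higher in DKI, by 1.04 to 1.55, against 7.40% called higher over all tested, and 6 were lower, by -1.27 to -1.62, against 2.12% called lower. Their limma adjusted p lay between 0.0305 and 0.0476, and they held places 107 to 299. With only 10 calls among the 300, nothing is read from the 0 calls among the brightest 100. On DKI replicate 3 itself, all 4 higher ones lay below the normal mean and 5 of the 6 lower ones did. The count of 10 became 74 when normal replicate 1 was also left out, against 2771 of the 14119 tested. It was 8, against 1252 of all, when it was normal replicate 2, and 0, against 371, when it was normal replicate 3. The count over all thus moved in the same direction. Leaving out another DKI array also gave 0, but this sets 1 DKI array against 3 normal ones, whose spread it is assumed to share, and says nothing about stability. With scan session as a block the count was 0, against 3 of all. It was 26, of which 21 higher, with normexp background correction, against 1171 of all, of which 775 higher. With quantile normalization it was 9, of which 7 higher, against 1177 of all, of which 1051 higher. Over all tested, most calls were higher under each scaling, with 1045 of 1345 in the main one. The split among the few calls of the 300 changed with the scaling, and nothing is read from it. An unadjusted p under 0.05 was reached by 51 of the 300 in this fit, or 17.0%, against 35.1% of all tested. Of these, 24 were higher, or 8%, against 16.4%, and 27 were lower, or 9%, against 18.7%. With 2 DKI arrays, the groups did not overlap for 109 of the 300, or 36.3%, against 56.6%. DKI was lower in 61 of them, or 20.3%, against 34.3%, and higher in 48, or 16.0%, against 22.2%.

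The 300 shared no position on the array. Its 4 equal blocks held 79, 70, 75 and 76 of them, or 23.3% to 26.3%, against 24.9% to 25.2% of all circRNA probes. Of their 1800 spots on the 6 arrays, 4 were marked as non-uniform by the scanner software (0.222%), against 0.488% of all circRNA spots.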

How the data were processed

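RNA of 6 samples was amplified with random primers, labelled with a single dye and hybridised to Arraystar circRNA arrays, per the labels' protocols. The design text names a human array, while the file headers name a mouse genome build. Agilent Feature Extraction 11.0.1.1 turned the scans into spot values, per the file headers. The deposited intensity values are the processed signal (background subtracted, not normalized between arrays), the software's error estimate, and the median spot and background brightness. Flags (well above background, saturated, non-uniform) are also given per the file headers. The authors also deposited a log2 table of 14150 circRNA probes, which holds all 300. The sources used here do not give its normalization. Each of its normal columns follows another normal array best, and it was used as an alternative only.

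The 300 circRNAs, the lists and the tests were chosen with earlier results of these data known. Each processed signal was taken on the log2 scale, less its array's 75th percentile over all circRNA probes, and fitted with limma 3.58.1 (lmFit, eBayes) in R 4.3.3 over the 14119 circRNAs well above background on at least 3 arrays. P-values were Benjamini-Hochberg adjusted over these, with a threshold of 0.05. Shares are of linear processed signals. Circles named are the 10 brightest, the 2 higher and 2 lower with the smallest p, the 2 least and 2 most variable in normal cortex, and the last inside and first outside the limit. Each circRNA has 1 spot per array, and 3 arrays per group limit the precision. The fit was also run on simulated data with independent noise and the same SD in both groups. The DKI arrays here had the wider spread, so nothing is read from that run. Alternatives were other scalings, background corrections, filters, blocks and arrays left out. The planned host gene lists were not used, since the files do not pair probes with genes.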

Additional observations from a re-analysis of the deposited data

How the results depend on the processing

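With all 6 arrays, limma called 0 of the 300 and 0 of all circRNAs under every scaling, background correction, filter, trend and block tried, and without any 1 array other than DKI replicate 3. At an unadjusted p under 0.05 the main fit had 23 and 1459. Leaving out 1 array gave 0 to 10 calls among the 300 and 0 to 1345 over all, the upper ends without DKI replicate 3. The replicate block gave 0 calls in both. At an unadjusted p under 0.05 it had 13 of the 300, or 4.33%, against 5.43% of all. The labels do not say that same-numbered samples belong together, and the replicate numbers were therefore not treated as pairs. Deviations of same-numbered arrays from their group means correlated at -0.42, 0.39 and -0.10. With 3 arrays per group these values cannot show or exclude pairs. The values that combine 2 choices were chosen after seeing the data. Without DKI replicate 3, calls over all and among the 300 were 1177 and 9 with quantile normalization, 1171 and 26 with normexp and the 75th percentile, 972 and 9 with the authors' values, and 3 and 0 with a session block. Leaving out a normal array as well gave 2771, 1252 and 371 over all (normal replicates 1, 2 and 3) and 0 to 74 among the 300. Leaving out either other DKI array gave 0, with 1 DKI array left that is assumed to vary like the normal ones, which says nothing about stability.

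The median difference of the 300 ranged from -0.88 to -0.16 with 1 array left out. Quantile normalization brought it to -0.29, normexp followed by quantile normalization to -0.28 and the authors' values to -0.29. It was -0.61 with a session block or within session 1. It turned to 0.0097 with a block of the inferred slides and within the inferred slide 1. Without DKI replicate 3 it turned to 0.020 with normexp and the 75th percentile and to 0.042 with a session block. Against held-out normal replicate 1 the median ranged from -0.91 to 0.14, the latter without DKI replicate 3, and against replicates 2 and 3 from -0.81 to -0.064, the latter against replicate 3 with quantile normalization. Normexp with the 75th percentile moved the median of all circRNAs to -0.14, and that of the 300 to -0.50. Taking 100 or 1000 probes changed the share to 57.7% or 86.0% in normal and 50.2% or 80.6% in DKI cortex. Among the brightest 10, ASCRP4004008 turned to 0.22, 0.098 and 0.093 and ASCRP4007626 to 0.096, 0.19 and 0.15 with quantile normalization, normexp with quantile normalization and the authors' values. Under quantile normalization values follow places in the order, which change little at the top on arrays other than DKI replicate 3, so nothing is read from those signs. With 1 array left out, ASCRP4007626 ranged from -0.58 to 0.086 and ASCRP4011502 from -1.14 to 0.043, the upper ends without DKI replicate 3. ASCRP4011502 turned to 0.068 with a block of the inferred slides and within the inferred slide 1. What caused them was not tested. The 300 were chosen to be well above background on every array.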
